A study of Macaca fascicularis
Homo sapiens with 2 samples.

Results

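The genes described here are 10 members of the bone morphogenetic protein (BMP) pathway and the inhibitor of DNA binding family: the ligand gene BMP7, the receptor genes BMPR1A and BMPR2, the inhibitor genes BAMBI, SMAD6 and SMAD7, and the target genes ID1, ID2, ID3 and ID4. They were chosen by name, with earlier results of these data known, among them that ID4 went against ID1. All 10 are among the 20669 human genes of the count tables, and 9 are among the 22504 cynomolgus macaque genes, where no gene carries the symbol SMAD6, out of 43173 genes in all. A human copy was read in human cells and a cynomolgus copy in cynomolgus cells, that is, in barcodes with at least 1000 unique molecular identifiers (UMIs, each standing for 1 captured RNA molecule) of which at least 90% mapped to that genome.

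BMP ligands bind a pair of type II receptors, such as BMPR2, and a pair of type I receptors, such as BMPR1A, BMPR1B or ACVR1. The type I receptor phosphorylates SMAD1, SMAD5 and SMAD9, which enter the nucleus with SMAD4 and activate target genes, among them the ID genes and the pathway's own inhibitors SMAD6, SMAD7 and BAMBI. ID proteins hold a helix-loop-helix domain without the DNA-binding part, so they pair with E proteins such as TCF3, TCF4 and TCF12 and keep them from acting with proneural factors. BMP signalling favours non-neural fates in early ectoderm, and blocking it is a standard way to turn pluripotent cells into neural progenitors.

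Human cells came from the embryonic stem cell line H9, and the macaque cells were the induced pluripotent line 56A1, so 1 line stands for each species. All carried a knockout of UGP2, the gene for the enzyme that makes UDP-glucose. Day 0 cells are labelled pluripotent and were in the medium labelled UPPS, into which they had been seeded with 10 µM of the ROCK inhibitor Y-27632. Day 7 cells had been kept for 7 days in neural induction medium with N2 and B27 supplements, insulin, 10 µM SB431542, an inhibitor of activin, NODAL and TGF-beta type I receptors, and 100 nM LDN193189, an inhibitor of BMP type I receptors. The protocol text that names these inhibitors is attached to both samples, and the day 0 sample was taken to be without them because its treatment label is UPPS. Both species were pooled in equal amounts on each day and captured as 1 library of 10x 3' RNA per day. Day, medium and library therefore cannot be told apart. Wild-type cells were not analysed here, so the values describe knockout cells of either day and say nothing about UGP2.

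The day 0 library held 12093 barcodes and 71377836 UMIs and the day 7 library 16403 barcodes and 99430745 UMIs, and 50 barcode sequences occurred in both. Filtering left 5206 human and 2016 cynomolgus cells on day 0, and 8173 and 6467 on day 7. On day 0, 4473 of 11695 filtered barcodes (38.25%) were called neither species, against 1476 of 16116 (9.16%) on day 7. Levels are UMIs per 1000000 own-species non-mitochondrial UMIs (CPM), summed over cells. The totals were 34670316 in human and 10683788 in cynomolgus cells on day 0, and 43723892 and 34639499 on day 7. The range in brackets after a level is its exact Poisson 95% interval, which covers counting error only. With 1 library per day there was no replicate and no test, and every difference describes these libraries. Changes are log2((CPM on day 7 + 1)/(CPM on day 0 + 1)), and "higher" or "lower" in a count means at least 2-fold on that scale. The labelled cell types were checked against marker genes. Between day 0 and day 7 summed pluripotency markers went from 4564 to 872 CPM in human and from 998 to 195 CPM in cynomolgus cells. Summed neural progenitor markers went from 886 to 2807 CPM and from 328 to 2499 CPM. The pluripotency sum took 12 human and 7 cynomolgus genes, as POU5F1, NANOG, TDGF1, UTF1 and PODXL had no cynomolgus symbol. The neural progenitor sum took 18 human and 16 cynomolgus genes, the latter without SOX1 and SOX11. The sums are therefore read between days and not between species.

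In human cells 3 of the 10 genes were higher on day 7 (ID4, BMP7 and ID2), 4 were lower (SMAD7, ID1, BAMBI and ID3) and 3 lay between. Of all 12010 human genes that reached 5 CPM on at least 1 of the days, 14.9% were higher and 14.4% lower. In cynomolgus cells 1 of 9 was higher (ID4), 4 were lower (ID3, SMAD7, BAMBI and ID1) and 4 lay between, where 13.8% of all 11276 genes were higher and 11.0% lower. All members were at 5 CPM or more on at least 1 day, so none was left out. The median change of the members was -0.03 in human and -0.20 in cynomolgus cells, beside 0.05 and 0.06 over all genes. The same 4 genes were lower in both species, and ID4 was higher in both. The members were thus split in direction, with SMAD7 and BAMBI at the low end, ID genes at both ends and the 2 receptor genes near 0.

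**Figure D1:**
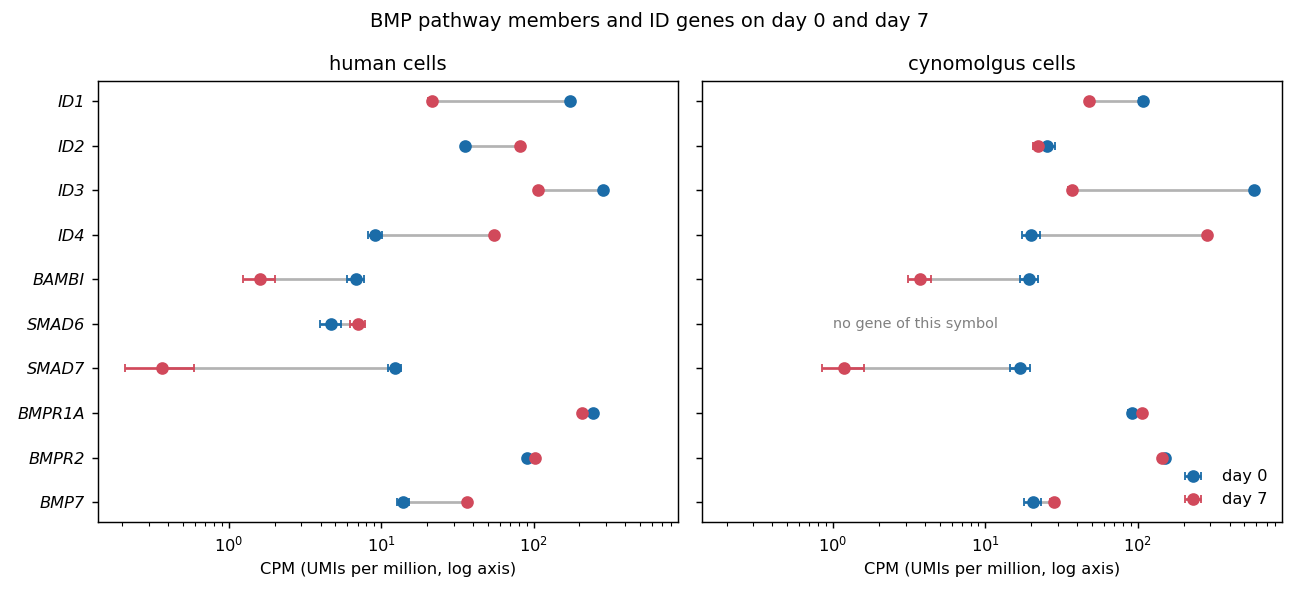
Level of each gene in human (left) and cynomolgus (right) cells on day 0 (blue) and day 7 (red), in CPM on a log axis, with exact Poisson 95% intervals from 1 library per day. ID1, ID3, BAMBI and SMAD7 lie further left on day 7 in both panels, ID4 lies further right in both, and BMPR1A and BMPR2 hardly move.

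BMP7 (ENSG00000101144) encodes a secreted BMP ligand. In human cells it was at 13.99 CPM (12.8 to 15.3) on day 0 and 36.7 CPM (34.9 to 38.5) on day 7, a log2 change of 1.33. The cynomolgus level was 20.4 CPM (17.8 to 23.3) and 28.1 CPM (26.4 to 29.9), a log2 change of 0.44. The counting intervals of the days did not overlap in either species, and only the human change passed 2-fold. Other ligand genes were low. Of the 14 ligand genes listed, 2 human genes reached 5 CPM (BMP7 and BMP2) and 3 of 11 with a cynomolgus symbol did. BMP4 was lower in cynomolgus cells, at 7.96 CPM (6.36 to 9.84) on day 0 and 1.30 CPM (0.948 to 1.74) on day 7. In human cells BMP4 stayed under the minimum, with 36 UMIs on day 0 and 2 on day 7.

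BMPR1A (ENSG00000107779), a type I receptor, differed little between days. It was at 244.9 CPM (239.8 to 250.2) on day 0 and 209.4 CPM (205.1 to 213.7) on day 7 in human cells, and at 92.0 CPM (86.3 to 97.9) and 106.2 CPM (102.8 to 109.7) in cynomolgus cells. The log2 changes were -0.23 and 0.20, opposite in sign and both far from 2-fold. BMPR2 (ENSG00000204217), the type II receptor, was at 91.0 CPM (87.9 to 94.2) and 102.4 CPM (99.4 to 105.5) in human cells, a log2 change of 0.17. The cynomolgus copy was at 151.1 CPM (143.8 to 158.6) and 144.3 CPM (140.3 to 148.4), and here the intervals of the days overlapped. Transcripts of both receptors were thus found at similar levels on either day.

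Several other receptor and co-receptor genes were higher on day 7, and none of those at 5 CPM or more was lower. In human cells 4 of 8 measured receptor and co-receptor genes were higher (BMPR1B, ACVR1, RGMA and RGMB), beside 14.9% of all genes, and in cynomolgus cells 3 of 8 (BMPR1B, ACVR1 and RGMA), beside 13.8%. Under that minimum, the co-receptor gene ENG was at 2.34 CPM (1.51 to 3.45) and 0.520 CPM (0.308 to 0.821) in cynomolgus cells. BMPR1B, a second BMP type I receptor, was at 9.17 CPM (8.19 to 10.2) on day 0 and 70.8 CPM (68.4 to 73.4) on day 7 in human cells. Its cynomolgus copy was at 8.61 CPM (6.94 to 10.6) and 64.1 CPM (61.4 to 66.8), so both the levels and the log2 changes, 2.82 and 2.76, were close in the 2 species. ACVR1, a further type I receptor, was at 23.3 CPM on day 0 against 60.1 CPM on day 7 in human cells, and at 32.5 and 69.3 CPM in cynomolgus cells. RGMA, a membrane-anchored BMP co-receptor, was at 28.3 CPM on day 0 against 63.0 CPM on day 7 in human cells, and at 59.2 and 271.9 CPM in cynomolgus cells. Its relative RGMB was at 11.3 and 28.1 CPM in human cells, past 2-fold, and its cynomolgus copy was at 11.4 and 22.1 CPM, short of it. For the type II receptor gene ACVR2B, many UMIs of cynomolgus cells mapped to the human copy, 417 beside 471 on day 0 and 1639 beside 1846 on day 7, so its cynomolgus level is uncertain. Among the 4 SMAD genes that carry the signal, SMAD9 was higher in both species, at 2.39 CPM on day 0 against 6.22 CPM on day 7 in human cells, and at 1.97 and 9.96 CPM in cynomolgus cells, and SMAD1, SMAD5 and SMAD4 lay between 2-fold limits in both.

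SMAD7 (ENSG00000101665) encodes an inhibitory SMAD that blocks type I receptors of both the BMP and the activin/TGF-beta branches. It was lower on day 7 in both species. Human cells held 425 SMAD7 UMIs on day 0, 12.3 CPM (11.1 to 13.5), and 16 on day 7, 0.366 CPM (0.209 to 0.594), a log2 change of -3.28. Cynomolgus cells held 181 and 41 UMIs, 16.9 CPM (14.6 to 19.6) and 1.18 CPM (0.8494 to 1.61), a log2 change of -3.04. BAMBI (ENSG00000095739), a pseudoreceptor without kinase activity, was also lower in both. It was at 6.81 CPM (5.97 to 7.73) and 1.60 CPM (1.25 to 2.02) in human cells, a log2 change of -1.59, and at 19.4 CPM (16.8 to 22.2) and 3.72 CPM (3.11 to 4.43) in cynomolgus cells, a log2 change of -2.11. The human BAMBI change was -0.84 with a pseudocount of 5 CPM in place of 1, which is under 2-fold. SMAD6 (ENSG00000137834), the inhibitory SMAD that acts mainly on the BMP branch, went the other way in human cells, from 4.67 CPM (3.98 to 5.45) on day 0 to 7.02 CPM (6.26 to 7.85) on day 7, a log2 change of 0.50. The inhibitors of this group thus did not share a direction in human cells.

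SKIL, a nuclear corepressor of SMADs, was a further inhibitor gene lower in both species, at 136.6 CPM on day 0 against 24.1 CPM on day 7 in human cells, and at 66.1 and 10.97 CPM in cynomolgus cells. In all, 3 of 8 measured human inhibitor genes were lower, beside 14.4% of all genes, and 3 of 7 cynomolgus ones, beside 11.0%, and none was higher. SMAD7 and SKIL are also known targets of the activin and TGF-beta branch, which SB431542 blocks. The 2 inhibitors were in the same medium, and medium goes with day and library. No change of any gene can therefore be assigned to either inhibitor.

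Secreted antagonists, which bind ligands outside the cell, differed in direction and between species. TWSG1 was higher in both, at 29.3 CPM on day 0 against 66.3 CPM on day 7 in human cells, and at 25.4 and 62.7 CPM in cynomolgus cells, and NBL1 was higher in human cells, at 1.30 and 7.07 CPM. In cynomolgus cells CHRD, which encodes chordin, was at 20.2 CPM (17.6 to 23.1) on day 0 and 1.07 CPM (0.752 to 1.47) on day 7, and FST, which encodes the activin and BMP binder follistatin, was at 86.9 CPM (81.5 to 92.7) and 7.07 CPM (6.21 to 8.02). The human FST copy was at 13.9 and 13.8 CPM, and human CHRD stayed under 1 CPM on both days, with 10 and 40 UMIs. CHRDL1 was higher in cynomolgus cells, at 7.11 and 18.2 CPM. SOSTDC1 had 1 UMI there on day 0, 0.0936 CPM (0.00237 to 0.521), and 293 on day 7, 8.46 CPM (7.52 to 9.49). Over the antagonist list, 2 of 5 measured human genes were higher and 0 lower, beside 14.9% and 14.4% of all genes. Of 6 cynomolgus genes 3 were higher and 2 lower, beside 13.8% and 11.0%. Differences between the species in this list were not tested.

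**Figure D2:**
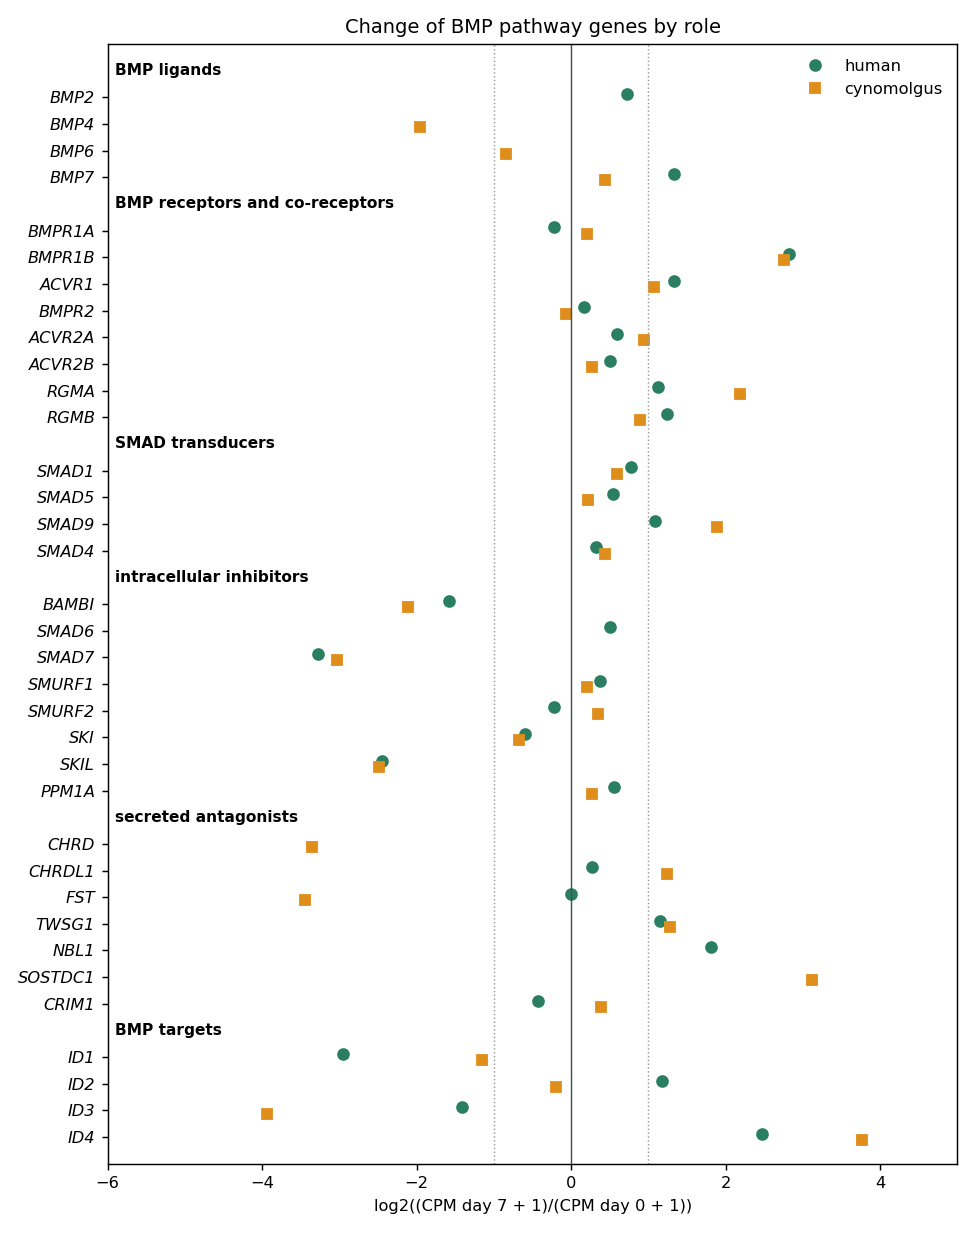
Log2 change from day 0 to day 7 of each BMP pathway gene that reached 5 CPM on at least 1 day, by role, in human (green circles) and cynomolgus (orange squares) cells; dotted lines mark 2-fold and a gene listed under 2 roles is drawn once. Receptor genes lie at or right of 0 apart from BMPR1A in human and BMPR2 in cynomolgus cells, SMAD7, SKIL and BAMBI lie left of 2-fold, and the 4 ID genes spread to both sides.

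Over the whole pathway list of 65 genes, 31 human genes were measured, of which 10 were higher and 5 lower, beside 14.9% and 14.4% of all genes. The share lower was thus near that of all genes. The median log2 change was 0.50, beside 0.05 over all genes. Without the members there were 21, of which 7 were higher and 1 (SKIL) lower. In cynomolgus cells 32 of 58 genes with a symbol were measured, of which 8 were higher and 8 lower, beside 13.8% and 11.0% of all genes, with a median of 0.27 beside 0.06. Without the members there were 23, of which 7 were higher and 4 lower (BMP4, CHRD, FST and SKIL).

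ID1 (ENSG00000125968) was lower on day 7 in both species. In human cells it was at 174.2 CPM (169.9 to 178.7) on day 0 and 21.6 CPM (20.2 to 23.0) on day 7, a log2 change of -2.96. The cynomolgus copy was at 108.2 CPM (102.1 to 114.6) and 48.1 CPM (45.8 to 50.4), a log2 change of -1.15. On this scale the day 7 levels of ID1 and ID4 were higher in cynomolgus than in human cells, and those of ID2 and ID3 were lower. Whether levels of the 2 species' copies can be compared was not tested, and BMP receptor activity was not measured.

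ID3 (ENSG00000117318), which is usually regulated together with ID1, was lower in both species too, with the sizes in the opposite order. It was at 287.4 CPM (281.8 to 293.1) and 107.5 CPM (104.5 to 110.7) in human cells, a log2 change of -1.41. Cynomolgus ID3 was at 582.7 CPM (568.3 to 597.3) and 36.9 CPM (35.0 to 39.0), a log2 change of -3.94. ID1 thus had the larger change in human cells and ID3 in cynomolgus cells, by 1.80 and -2.53 as cynomolgus minus human on the log2 scale. The days' intervals did not overlap for these pairs, but neither did they for a change as small as that of human BMPR1A (-0.23). With 1 library per day the species difference was not tested.

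ID4 (ENSG00000172201) went the other way in both species. In human cells it was at 9.11 CPM (8.14 to 10.2) on day 0 and 55.1 CPM (52.9 to 57.4) on day 7, a log2 change of 2.47. Cynomolgus ID4 was at 20.03 CPM (17.4 to 22.9) and 284.1 CPM (278.5 to 289.8), a log2 change of 3.76. ID4 is known for its expression in neural progenitors of the developing brain. Part of the ID4 UMIs of cynomolgus cells mapped to the human copy, 71 beside 214 on day 0 and 2591 beside 9841 on day 7. With both copies summed, cynomolgus cells held 26.7 and 358.9 CPM, a log2 change of 3.70. Human cells carried 126 UMIs of the cynomolgus copy on day 7. At the ratio of the copies seen in cynomolgus cells, RNA from cynomolgus cells would bring 33.2 human-copy UMIs into human cells, or 1.38% of the 2410 counted there.

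ID2 (ENSG00000115738) had changes of opposite sign in the 2 species, a difference that was not tested. It was at 35.7 CPM (33.8 to 37.8) on day 0 and 82.0 CPM (79.4 to 84.8) on day 7 in human cells, a log2 change of 1.18, and at 25.4 CPM (22.4 to 28.6) and 22.0 CPM (20.5 to 23.6) in cynomolgus cells, a log2 change of -0.20. The cynomolgus intervals overlapped. The ID family was therefore split, with ID1 and ID3 lower and ID4 higher on day 7 in both species and ID2 higher in human cells.

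The partners and downstream factors of ID proteins were read from a second list. The 3 E protein genes lay between the 2-fold limits in both species. TCF4, for example, was at 332.4 CPM on day 0 against 560.9 CPM on day 7 in human cells, and at 453.2 and 493.1 CPM in cynomolgus cells. Of 11 proneural and HES genes, 5 human genes were measured. HES4 and HES5, Notch-responsive repressors, were higher at 0.894 and 49.2 CPM and at 0.231 and 26.9 CPM. HES6 and HEY2 were lower, at 58.3 and 14.7 CPM and at 19.4 and 0.183 CPM. In cynomolgus cells 2 of the 9 with a symbol were measured, HES1, which was higher at 34.6 and 113.9 CPM, and HES6, at 22.8 and 27.3 CPM. The proneural gene NEUROG2 had 0 UMIs on day 0 and 126 on day 7 in human cells, 2.88 CPM, which is under the 5 CPM minimum. Its cynomolgus copy had 0 and 1 UMIs. Cynomolgus HES5 had 0 UMIs on day 0 and 29 on day 7, 0.837 CPM, also under the minimum.

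The share of cells with at least 1 UMI was compared after every cell was thinned to 2500 own-species UMIs. Cells under that depth were dropped, 496 human and 12 cynomolgus on day 0 and 349 and 456 on day 7. Before thinning, the median human cell had 7021 own-species UMIs on day 0 and 4965 on day 7, and the median cynomolgus cell 5197 and 4713. As a background, the share of cells of the other species with a UMI of the same copy is given, since free RNA in the droplets can reach any cell. ID1 was found in 28.4% of human cells (exact binomial 95% interval 27.1% to 29.7%) on day 0 and 4.65% (4.20% to 5.14%) on day 7, against backgrounds of 2.05% and 0.0333%. Without thinning the shares were 56.3% and 9.82%. In cynomolgus cells ID1 was found in 17.6% (16.0% to 19.4%) and 9.95% (9.20% to 10.7%), against 0.573% and 0.128%, and without thinning in 31.6% and 19.9%. The lower ID1 level on day 7 was thus seen as fewer cells with a UMI in both species.

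ID3 was found in 43.7% of human cells (42.3% to 45.1%) on day 0 and 21.7% (20.8% to 22.7%) on day 7, against 2.35% and 0.316%. In cynomolgus cells it was found in 68.5% (66.4% to 70.5%) and 7.93% (7.26% to 8.65%), against 3.42% and 0.0511%. Unthinned, these shares were 72.9% and 36.0%, and 86.7% and 14.4%. The share with ID3 was thus higher in cynomolgus than in human cells on day 0 and lower on day 7. ID4 was found in 4.94% of cynomolgus cells (4.03% to 5.98%) on day 0 and 44.9% (43.6% to 46.2%) on day 7, against 0.149% and 0.728%, and unthinned in 9.42% and 63.2%. In human cells ID4 was found in 2.04% and 11.9% (unthinned 5.21% and 23.4%), while 1.40% and 16.4% of cynomolgus cells had a UMI of the human copy. On day 7 the human ID4 share was below that share of cynomolgus cells. Because part of the ID4 UMIs of cynomolgus cells mapped to the human copy, that share does not measure free RNA alone. RNA from cynomolgus cells was put above at 33.2 of the 2410 human-copy ID4 UMIs in human cells on day 7, or 1.38%. The source of the human-copy UMIs in cynomolgus cells was not tested. ID2 was found in 7.43% and 17.1% of human cells (unthinned 19.5% and 31.2%, background 0.349% and 0.2995%) and in 6.14% and 4.89% of cynomolgus cells (unthinned 11.5% and 10.2%, background 0.255% and 0.0511%).

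Among the remaining members, SMAD7 was found in 2.48% of human cells (2.06% to 2.97%) on day 0 and 0.102% (0.0442% to 0.201%) on day 7, against 0.150% and 0.0166%, and in 3.29% (2.56% to 4.17%) and 0.116% (0.0468% to 0.240%) of cynomolgus cells, against 0.170% and 0%. Without thinning these shares were 7.49% and 0.196% in human cells, then 8.18% and 0.634% for the cynomolgus copy. SMAD7 was thus close to undetected per cell on day 7 at this depth. BAMBI was found in 1.34% and 0.332% of human cells (unthinned 4.32% and 0.844%, background 0.0499% and 0.0166%) and 4.24% and 0.865% of cynomolgus cells (unthinned 9.57% and 1.89%, background 0.0637% and 0%). BMP7 was found in 3.16% and 8.09% of human cells (unthinned 8.51% and 17.1%, background 0.449% and 0.216%) and 4.94% and 6.77% of cynomolgus cells (unthinned 9.97% and 13.2%, background 0.127% and 0.0767%). These shares follow the levels of BAMBI and BMP7 in direction. BMPR1A was found in 40.1% and 37.9% of human cells (unthinned 66.9% and 60.0%, background 1.70% and 1.13%) and 19.8% and 21.4% of cynomolgus cells (unthinned 36.4% and 38.9%, background 0.403% and 0.281%).

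Cells with and without a UMI of ID1 were compared in their other ID genes. Among thinned human cells of day 0, ID3 was found in 41.0% (38.3% to 43.7%) of those with ID1 and 44.8% (43.1% to 46.5%) of those without, with intervals that just overlap. In cynomolgus cells of day 0 the shares were 72.8% (67.8% to 77.4%) and 67.6% (65.3% to 69.9%). On day 7 ID3 was found in 23.6% and 21.6% of human and in 8.86% and 7.83% of cynomolgus cells with and without ID1, with overlapping intervals. In cynomolgus cells of day 0 ID4 was found in 9.07% (6.28% to 12.6%) of cells with ID1 and 4.06% (3.16% to 5.12%) of those without. These intervals did not overlap. On day 7 the shares with ID4 were 41.0% (37.0% to 45.0%) and 45.4% (44.0% to 46.7%), with overlapping intervals. Other RNA of these cells was not compared.

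Cells of each species and day were clustered without the BMP pathway genes, and clusters are named by number and leading genes, the genes highest in the cluster relative to the other cells. The members' levels differed between clusters of a day. The clearest case was a small day 0 cluster in each species with the most neural progenitor marker RNA. In human cells this was cluster 5, with 437 of 5206 cells (8.39%), led by DLK1, SIX3 and IGFBP5, with summed neural progenitor markers at 3155 CPM and summed pluripotency markers at 2320 CPM. In cynomolgus cells it was cluster 4, with 100 of 2016 cells (4.96%), led by LMO2, FBN2 and SMOC1, with 1598 and 590 CPM. DLK1, SMOC1 and UNC5C were among the 10 leading genes of both.

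In human cluster 5 ID4 was at 54.9 CPM (45.4 to 65.8), beside 6.09 CPM in the other day 0 cells and 55.1 CPM over all day 7 cells. BMP7 was at 60.5 CPM (50.5 to 71.8), beside 10.9 CPM in the other day 0 cells. BMPR1B was at 20.5 CPM (14.9 to 27.5), beside 8.42 CPM. ID4 and BMP7 were thus at or above their day 7 level in these cells, and BMPR1B was under its 70.8 CPM. ID3 was at 511.9 CPM (482.1 to 543.0), the highest of the 8 clusters and above the 287.4 CPM of all day 0 cells, and ID1 at 123.8 CPM (109.3 to 139.6), well above its day 7 level of 21.6 CPM. SMAD7 was at 9.77 CPM (6.05 to 14.9), beside 12.4 CPM in the other cells, and BAMBI at 0.931 CPM (0.113 to 3.36), from 2 UMIs, beside 7.195 CPM. In this cluster ID4 and BAMBI, at 1.60 CPM on day 7, were thus near their day 7 levels, ID1 and SMAD7 were nearer to their day 0 levels, and ID3 was above both.

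Cynomolgus cluster 4 had the same order for several of these genes. ID4 was at 61.5 CPM (42.8 to 85.5) beside 17.7 CPM in the other day 0 cells, and BMP7 at 57.9 CPM (39.9 to 81.4) beside 18.3 CPM. BMPR1B was at 22.8 CPM (12.2 to 39.0) beside 7.81 CPM, and ID3 at 876.3 CPM (801.1 to 956.7) beside 566.1 CPM. ID1 was at 47.4 CPM (31.2 to 69.0) beside 111.6 CPM. This was near its day 7 level of 48.1 CPM, whereas ID1 in human cluster 5 was well above its day 7 level. SMAD7 was at 10.5 CPM (3.87 to 22.9), above its day 7 level of 1.18 CPM. BAMBI was lowest in cluster 3, at 10.5 CPM (6.01 to 17.1). Unlike in human cluster 5, BAMBI was thus above its day 7 level, here 3.72 CPM, in cynomolgus cluster 4. ID4 here stayed under the 284.1 CPM of day 7. With finer clusters the highest day 0 level of BMP7 in cynomolgus clusters of at least 100 cells was 35.2 CPM and that of ID4 43.8 CPM. Without the 2 clusters the log2 changes of ID4 were 2.98 in human and 3.93 in cynomolgus cells, and those of BMP7 1.66 and 0.59, so the day 7 levels were higher without these cells as well.

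**Figure D3:**
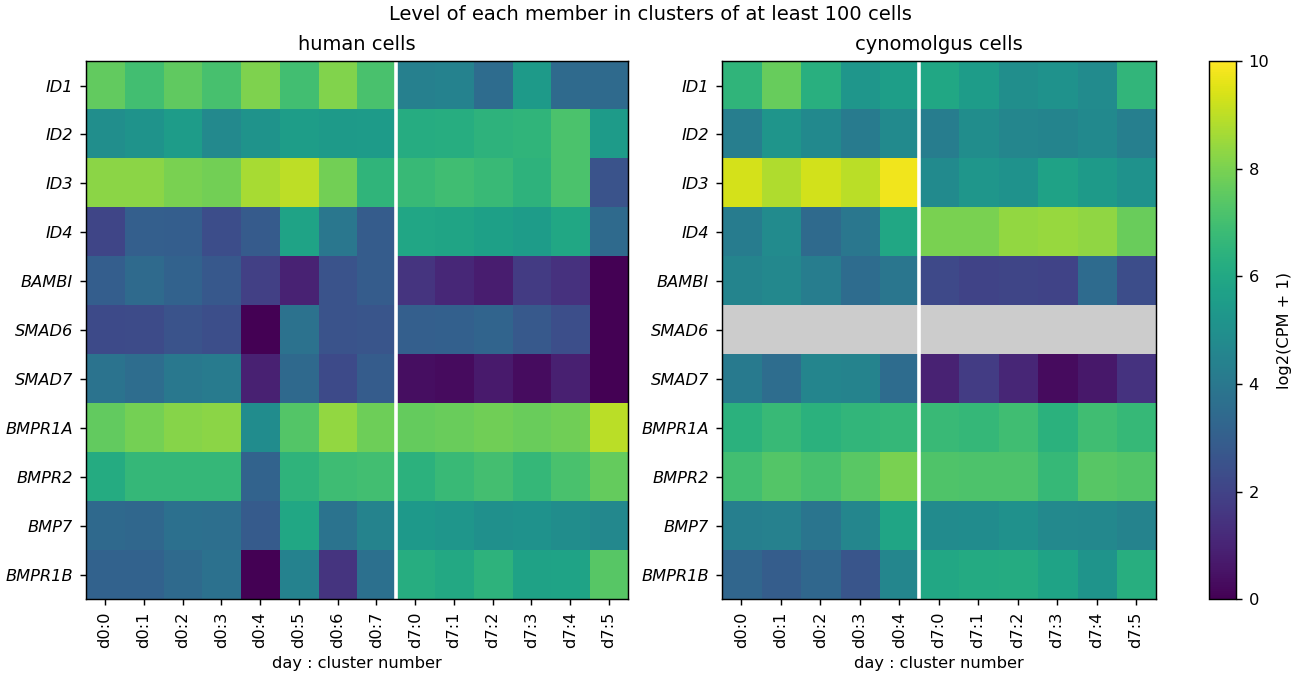
Level of the 10 genes and of BMPR1B, as log2(CPM + 1), in every cluster of at least 100 cells, day 0 left and day 7 right of the white line, human cells on the left (14 clusters) and cynomolgus cells on the right (11 clusters; no gene carries the symbol SMAD6). Human cluster d0:5 and cynomolgus cluster d0:4 have the highest day 0 level of ID4, BMP7 and ID3 in their species.

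Among the other day 0 clusters, ID1 ranged from 123.7 CPM (114.8 to 133.2) in human cluster 1, led by FBXL20, DTL and ZNF367, to 272.6 CPM (253.2 to 293.1) in human cluster 6, led by NPTX1, PCDH18 and DAZL. In cynomolgus cells it ranged from 36.8 CPM (27.8 to 47.8) in cluster 3, led by XIRP2 and SPP1, to 203.2 CPM (187.0 to 220.4) in cluster 1, led by VAT1L, TRIM22 and IRX2. ID1 was therefore uneven within day 0, by 2.20 times in human and 5.52 times in cynomolgus clusters. ID3 was lowest in human cluster 7, led by the hypoxia-responsive genes BNIP3 and DDIT4, at 91.6 CPM (71.4 to 115.7). Human cluster 4, with 548 cells and a median of 2028 UMIs against 7220 over all day 0 human cells, had BMPR1A at 28.0 CPM (19.1 to 39.8), SMAD6 at 0 UMIs and ID1 at 264.2 CPM (234.7 to 296.3). Human cluster 5 of day 7, with 129 cells and a median of 1575 UMIs against 5032, had BMPR1A at 499.2 CPM (406.6 to 606.6) and ID3 at 4.94 CPM, from 1 UMI. Without these 2 clusters of low UMI count the human log2 change of BMPR1A was -0.28 and that of ID3 -1.38, close to the values with them.

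On day 7 ID1 was highest in clusters with mitotic genes among their leading genes, which in cynomolgus cells stood beside hypoxia-responsive genes in the cluster with most ID1. Human cluster 3, with 927 cells and UBE2C, PLK1 and TOP2A among its leading genes, had ID1 at 42.8 CPM (38.2 to 47.8), while the other human clusters of day 7 with at least 100 cells lay between 9.89 and 20.9 CPM. Cynomolgus cluster 5, with 442 cells, had the mitotic genes NEK2, UBE2C and PIF1 and the hypoxia-responsive genes ADM, ANKRD37, SLC2A3, PFKFB4 and BHLHE40 among its 10 leading genes. It had ID1 at 96.0 CPM (85.0 to 108.0), and cluster 0, with 1471 cells and PLK1, AURKA and TOP2A among its leading genes, had 60.3 CPM (55.7 to 65.2). The remaining 4 lay between 27.4 and 44.6 CPM, the highest of them in cluster 1, where the same 5 hypoxia-responsive genes were among the leading genes. A second mitotic pattern, led by PTTG1, CCNB2 and CDC20 in both species, went with low ID1, at 9.91 CPM (6.28 to 14.9) in human cluster 4 and 27.4 CPM (20.4 to 36.1) in cynomolgus cluster 4. ID2 and ID3 were highest in that human cluster, at 142.1 CPM (127.2 to 158.3) and 143.0 CPM (128.0 to 159.2). Clusters led by mitotic genes thus lay at both ends of the ID1 order. The human clusters had median depths of 7751 and 4314 UMIs and the cynomolgus clusters 6165, 6771 and 3608, and the part of depth was not tested.

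In cynomolgus cells ID4 was more even than ID1 over the clusters of day 7, with highest over lowest at 1.69 against 3.50. Over the human clusters this ratio was 6.14 for ID4 and 4.33 for ID1, with cluster 5 lowest for both. Human ID4 lay between 45.6 and 60.7 CPM in clusters 0 to 4, and was at 9.89 CPM, from 2 UMIs, in cluster 5. Cynomolgus ID4 ranged from 207.9 CPM (191.6 to 225.2) in cluster 5 to 351.1 CPM (333.7 to 369.3) in cluster 3, led by UNG, UHRF1 and DCTPP1. Cynomolgus cluster 5 thus had both the highest ID1 and the lowest ID4 of day 7.

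**Figure D4:**
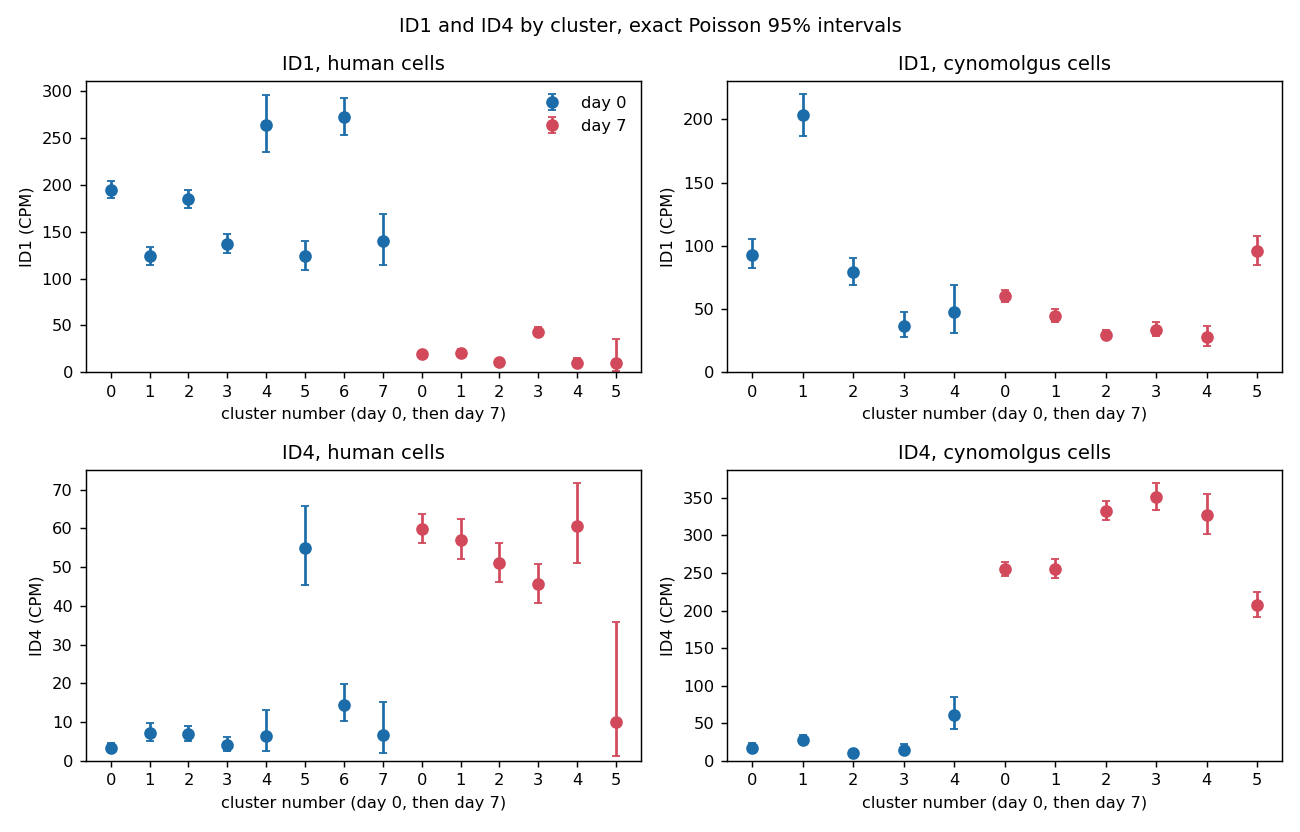
ID1 (top) and ID4 (bottom) in CPM by cluster in human (left) and cynomolgus (right) cells, clusters of at least 100 cells, day 0 in blue and day 7 in red, with exact Poisson 95% intervals. ID4 in human cluster 5 of day 0 lies at its day 7 level, and ID1 on day 7 is highest in human cluster 3 and cynomolgus cluster 5.

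Genes with a cluster pattern most like ID1 and ID4 were found by Pearson's r of log2(CPM + 1) over the clusters of at least 100 cells of both days. These points share 2 libraries and mostly separate by day, so r is a description. Over 14 human clusters and 9853 genes, ID1 was most like MED22, PEPD, TUBB2A, PLPP2 and HLA-B, with r from 0.96 to 0.97, while COMMD3, FABP7, FXYD6 and FEZF1 were among the genes most like ID4, each with r of 0.95. Over 11 cynomolgus clusters and 8030 genes, ID1 was most like GGA1, PTPA, BTD, GEMIN8 and RGS6, with r from 0.77 to 0.91, and ID4 most like PIGF, CHN2, METRN, IFT43 and DLL1, with r of 0.99. Among the members, human ID4 had r of 0.86 with both ID2 and BMP7 and -0.67 with ID1. Cynomolgus ID4 had r of -0.97 with SMAD7 and -0.91 with ID3.

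Markers of other cell types that BMP signalling can favour were read beside these results. In human cells 14 non-neural ectoderm and amnion markers summed to 732.6 CPM on day 0 against 231.2 CPM on day 7, nearly all from the keratin genes KRT8 and KRT18. The defining genes were near 0, with TFAP2A at 0.0865 and 0.252 CPM, GATA3 at 0.0577 and 0.0229 CPM and HAND1 at 0. In cynomolgus cells 12 of these markers summed to 45.8 and 4.42 CPM, with GATA2 and CDX2 at 0. The 3 that were measured were all lower on day 7: VTCN1 went from 22.0 to 0.318 CPM, KRT7 from 12.7 to 0.375 CPM and TFAP2C from 8.33 to 0.0866 CPM. Under the 5 CPM minimum the markers differed in direction. DLX5 went from 0.655 CPM (0.263 to 1.35) up to 2.51 CPM (2.01 to 3.10), and TFAP2A from 1.31 down to 0.144 CPM. Neural crest markers summed to 88.0 CPM on day 0 against 66.7 CPM on day 7 in human cells, and to 50.5 and 28.9 CPM in cynomolgus cells. Dorsal midline markers summed to 3.61 CPM on day 0 against 11.1 CPM on day 7 in human cells. In cynomolgus cells, where ID4 was also higher on day 7, the sums were 11.6 and 114.2 CPM. Nearly all of the latter came from the 3 genes measured there, RSPO2 (67.0 CPM), TTR (23.7 CPM) and LMX1A (21.6 CPM), all higher on day 7. The other listed genes with a cynomolgus symbol stayed low on day 7. RSPO3 fell from 1.685 to 0.98 CPM, MSX2 reached 0.491 CPM and WNT3A 0.404 CPM. GDF7 and WNT1 were each at 0.0289 CPM, and WNT1 was at 0 in human cells. Neuron markers summed to 77.8 and 559.0 CPM in human cells, where MAP2 alone went from 36.0 to 517.4 CPM and NEFM from 22.8 to 6.61 CPM, and to 85.5 and 312.0 CPM in cynomolgus cells, where MAP2 went from 56.6 to 180.4 CPM and TUBB3 from 7.39 to 79.0 CPM. Mesoderm markers summed to 7.21 and 5.40 CPM and to 6.27 and 7.45 CPM, and endoderm markers to 3.32 and 6.15 CPM and to 7.39 and 52.3 CPM, the last mainly from CXCR4. The part of these cell types in the members' changes was not tested.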

How the data were processed

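The deposited tables hold UMI counts per gene and barcode, made with Cell Ranger 7.1.0 per the file headers. Version 7.2.0 and the build GRCh38 stand in the submitters' processing notes. How reads were mapped is not stated there. A barcode needed 1000 UMIs, 500 genes and no more than 20% mitochondrial UMIs, and was given to a species at 90% of UMIs. Doublets within a species were not removed and no caller was run. UMI counts were summed per species and day. Genes entered list counts at 5 CPM or more on either day, with a pseudocount of 1 CPM. Clusters (2000 variable genes, 30 components, 15 neighbours, Leiden resolution 0.5) were made per species and day. The step between days was tested on simulated data. Named were the members, pathway genes past 2-fold, and the 5 genes most like ID1 and ID4 (at 20 CPM or more in at least 1 cluster). A result that this rule names is not reported here. Some cluster, proneural, E protein and marker genes were named as examples after their values were seen. The members and lists were chosen with earlier results of these data known. Alternatives covered the species call, cell filters, CPM total and scaling, equal weight per cell, pseudocount, minimum level, both copies summed, clusters left out, thinning depth and resolution. Clustering used scanpy 1.11.5 with leidenalg 0.10.2 and scikit-learn 1.9.0. Sums and intervals used numpy 2.4.6, pandas 2.3.3 and scipy 1.17.1 under Python 3.11.15, and plots matplotlib 3.10.9.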

Additional observations from a re-analysis of the deposited data

Results flagged for a closer look

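For 3 members the change from day 0 to day 7 had opposite signs in the 2 species, and in each case the difference was not tested, since each species had 1 library per day. ID2 was higher on day 7 in human and slightly lower in cynomolgus cells, a difference of -1.37 on the log2 scale as cynomolgus minus human. For BMPR1A this difference was 0.43 and for BMPR2 it was -0.23. The cynomolgus intervals of the 2 days overlapped for ID2 and BMPR2.

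Genes with no cynomolgus symbol still gave UMIs on the human copy in cynomolgus cells, above the limit that a count of 0 allows. SMAD6 had 4 UMIs on day 0 and 28 on day 7, NOG had 4 and 131, BMP5 had 11 and 19, and FSTL3 had 4 on day 7. For comparison, human cells held 162 and 307 UMIs of SMAD6 on days 0 and 7, 8 and 45 of NOG, and 18 and 104 of BMP5. They held 95 of FSTL3 on day 7. For NOG on day 7 the cynomolgus cells thus held more human-copy UMIs than the human cells, and for the other 3 genes fewer. The source of these UMIs in cynomolgus cells was not tested.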

How the results depend on the processing

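Every member kept the sign of its change in all 13 human and 12 cynomolgus alternatives, and each kept its side of 2-fold except human BAMBI, at -0.84 with a pseudocount of 5 CPM against -1.59. The human SMAD7 change ranged from -4.73 with a pseudocount of 0.1 CPM to -1.69 with 5 CPM, since its day 7 level rests on 16 UMIs. The 5 human pathway genes lower on day 7 became 8 with a minimum of 1 CPM and 3 with 20 CPM, and the 8 higher and 8 lower cynomolgus genes became 5 and 5 with 20 CPM, as other genes were counted. At a species call of 80% there were 4466 cynomolgus day 0 cells in place of 2016, and ID4 changed by 3.45 and ID1 by -1.29. A call at 95% left 0 cynomolgus day 0 cells and gave no value. Rescaling day 7 by the median ratio moved changes by 0.02 in human and 0.03 in cynomolgus cells. Thinning to 1500 or 4000 UMIs moved 73 of 76 shares beyond their counting intervals, since a share with a UMI depends on depth. At Leiden resolution 1, 7 of 38 highest cluster levels moved, all in cynomolgus cells, such as day 0 ID1 at 296.3 CPM. Leaving out clusters of low UMI count was added after seeing the data. No paired analysis was possible because each day is 1 library. Depth limits SMAD7 and BAMBI on day 7 and all genes in clusters of few cells.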
